A study of Mus musculus with 8 samples.

Results

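The genes for the cytosolic ribosomal proteins were taken as every row of the deposited table with a symbol of the form Rps or Rpl plus a number, with at most a short suffix, together with Rpsa, Rplp0, Rplp1 and Rplp2. The rule used symbols alone. It gave 83 genes of the 38172 rows in the table, 32 for proteins of the small ribosomal subunit and 51 for proteins of the large one. Genes were tested where 2 or more of the 4 biological replicates reached a scaled value of 10, which held for 18318 rows. Among them were 81 of the 83 genes, all 32 of the small subunit and 49 of the large one. The untested 2 were Rpl10l, with a value of 0 in all 8 libraries, and Rpl3l, with mean scaled values of 2 and 1 in the old replicates and 0.5 and 3.5 in the young ones.

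The RNA came from haematopoietic stem cells, the self-renewing marrow cells from which all blood cells descend, sorted fresh from wild-type C57BL/6 mice of 24 months (old) or 4 months (young). The sort kept cells of the side population, defined by loss of a DNA-binding dye, that were positive for Kit and Sca-1, negative for lineage markers and positive for CD150. Each age had 2 biological replicates, numbered 13 and 14 in the labels, and each replicate had 2 technical libraries of polyadenylated RNA. They are called old 13, old 14, young 13 and young 14 here. The number of animals behind each replicate is not in the labels, so p-values measure only the spread between these samples. Scaled values added up to 40.7 M to 44.2 M per library, from 22.3 M to 66.5 M reads as estimated from the steps between the values.

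Markers of stem cells were present in every replicate. Kit, the stem cell factor receptor, had scaled values of 57824 and 63950 in the old replicates and 56382 and 54959 in the young ones. Of the 10 stem cell markers 2 were higher in old cells and 1 lower. Slamf1, which encodes the CD150 of the sort, had 3175 and 3083 in the old replicates and 1597 and 1736 in the young ones (log2 fold change 0.91, adjusted p = 0.0226 in limma). Procr had a log2 fold change of 0.84 (adjusted p = 0.0483 in limma) and Cd34, a marker of more advanced progenitors that the described sort did not use, one of -0.94 (adjusted p = 0.0456 in limma). Markers of B cells and T cells summed to at most 1248 and 431 in any replicate.

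Ribosomal proteins are made in near equal numbers, since each ribosome carries most of them once, and they assemble with ribosomal RNA in the nucleolus into a small subunit that decodes the message and a large subunit that joins amino acids. Their messages mostly begin with a C and a run of pyrimidines, the 5′ terminal oligopyrimidine (TOP) motif, through which mTOR and Larp1 control their translation and stability together. Blood stem cells are known for a low rate of protein synthesis, and in humans mutations of single ribosomal protein genes cause Diamond-Blackfan anaemia, a failure of red cell production.

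The start of these genes shared the pyrimidine run, which the choice by symbol had not used. Promoter windows from RefSeq (GRCm38.p6) were matched by symbol for 62 of the 83 genes. A C followed by at least 5 bases that were each C or T lay within 20 bases of the annotated start, on the sense strand, in 41 of the 62, or 66.1%. The same run was present in 32.8% of all 27025 genes of the table. It was found for 17 of 23 small subunit genes and 24 of 39 large subunit genes. On the opposite strand 16.1% of the ribosomal protein genes held it, against 35.7% of all genes. A match here is a string of letters near an annotated start and not a measured transcript end. The 30 bases around the start, 15 on each side, are shown for 8 genes with a run in capitals and for Rps4x, whose window holds none. They were chosen to cover both subunits and some of the genes with large or small age differences or with library differences described further on. The choice does not reflect the share of genes with a run, which was 41 of the 62.
Rps15a, chr7:118116133-118116162, minus strand: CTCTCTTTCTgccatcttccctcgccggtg
Rps18, chr17:33955651-33955680, minus strand: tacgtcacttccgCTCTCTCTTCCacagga
Rps6, chr4:86857353-86857382, minus strand: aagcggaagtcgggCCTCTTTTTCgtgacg
Rps27, chr3:90213634-90213663, minus strand: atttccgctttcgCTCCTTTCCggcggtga
Rpl15, chr14:18270972-18271001, minus strand: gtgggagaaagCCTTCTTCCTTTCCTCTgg
Rpl35, chr2:39005117-39005146, minus strand: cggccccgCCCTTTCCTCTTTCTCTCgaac
Rpl12, chr2:32961697-32961726, plus strand: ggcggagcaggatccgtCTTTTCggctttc
Rpl4, chr9:64173372-64173401, plus strand: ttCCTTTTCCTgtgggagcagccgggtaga
Rps4x, chrX:102189377-102189406, minus strand: ctgaggctgggcggagcaacccaggctcca
Genes with and without the run had like age differences in the stem cells. The median log2 fold change, old over young, was 0.22 for the 41 tested genes with a run and 0.23 for the 19 tested genes without one.

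Ribosomal protein messages were among the most abundant of these cells. Levels of different genes were compared as FPKM, the reads of a gene relative to the length of its model and the depth of the library, which corrects for length. The 81 genes had a median of 304 FPKM over the 4 replicates, and 56 of them had at least 100 FPKM. The highest was Rpl32 of the large subunit, with 1876 and 3226 FPKM in the old replicates and 1962 and 2222 FPKM in the young ones. Next came Rps4x, the X-linked form of a small subunit protein, with 1644 and 2761 FPKM in the old replicates and 1619 and 2013 FPKM in the young ones. Rplp1 of the stalk had a mean of 1860 FPKM, and Rps14 was also among the 5 highest with 1548 FPKM. The difference between Rpl32 and Rps4x was smaller than the SD between the old replicates, which was 955 FPKM for Rpl32 and 790 FPKM for Rps4x.

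At the low end stood Rpl39l, a paralog of Rpl39, with 0.362 and 0.287 FPKM in the old replicates and 0.287 and 0.212 FPKM in the young ones. Leaving out the paralogs, the lowest were Rpl27, with a mean of 10.3 FPKM, and Rps27, with 10.4 FPKM, both core parts of the ribosome. Rpl10, which completes the large subunit late in assembly, had 13.7 FPKM and Rpl10a had 19.2 FPKM. These 4 genes also differed between technical libraries, as described further on. The range from Rpl27 to Rpl32 was thus 226-fold in message level per length. The order of the 81 genes was close to the same in all 4 replicates, with a Spearman correlation across genes of 0.994 to 0.998 for any pair. Small subunit genes had a median of 565 FPKM and large subunit genes one of 249 FPKM. The summed FPKM of the subunits were nearly equal, with a small to large ratio of 0.995 and 1.02 in the old replicates and 0.982 and 0.971 in the young ones. Both old ratios were above both young ones, with means of 1.01 ± 0.0181 in old cells and 0.977 ± 0.00801 in young cells (SD, n = 2 each).

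**Figure D1:**
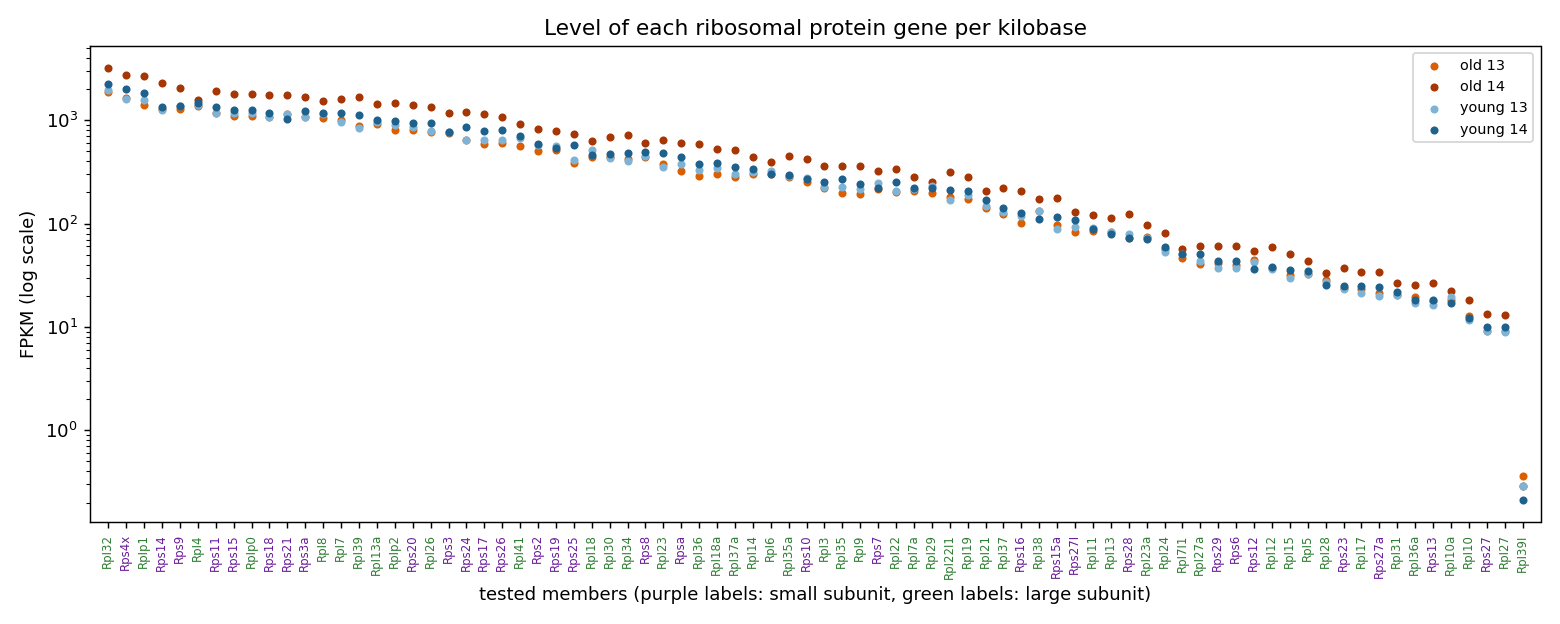
Level of 80 of the 81 tested ribosomal protein genes as FPKM on a log scale, 1 point per biological replicate, in order of the mean over the 4 replicates. The point of old 14 lies above the other 3 for every gene drawn but Rpl39l, and the order of the genes runs from Rpl32 (mean 2322 FPKM) to Rpl39l (mean 0.287 FPKM).

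With age, none of the ribosomal protein genes passed the test. Of the 81 tested genes 0 were higher and 0 were lower in old cells at an adjusted p under 0.05 in limma, where 2.01% of all tested genes were higher and 0.54% lower. At an unadjusted p under 0.05 there were also 0 of the 81, against 14% of all tested genes, and limma-voom gave 0 by either count. The lowest adjusted p was 0.486, for Rps12 of the small subunit. Fitted differences pointed the same way in 80 of the 81 genes, with old above young, as did 56.5% of all tested genes. They were small, with log2 fold changes of -0.04 to 0.40 and a median of 0.23, beside a median of 0.04 over all tested genes.

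**Figure D2:**
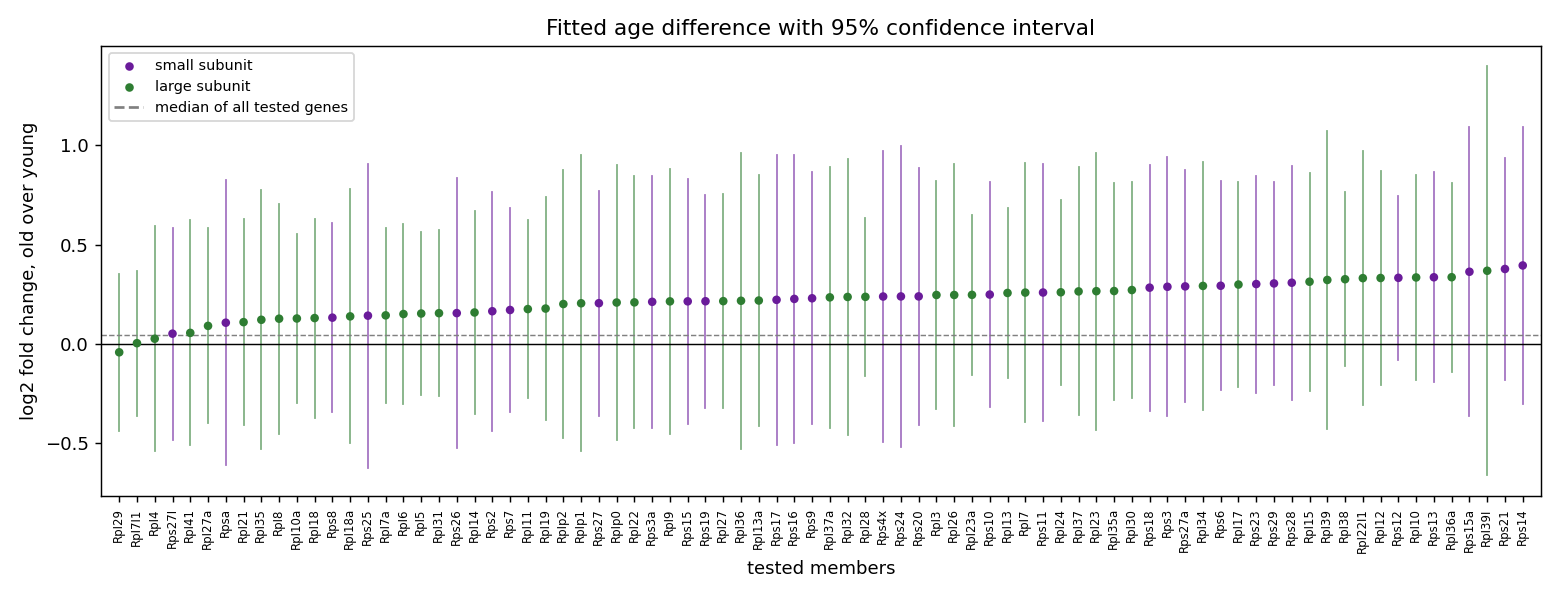
Fitted log2 fold change, old over young, of 80 of the 81 tested ribosomal protein genes in rising order, with 95% confidence intervals as lines. Every interval drawn includes 0, and the values run from -0.04 for Rpl29 to 0.40 for Rps14.

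The standard errors of these fold changes were 0.154 to 0.434, with a median of 0.243. All 81 confidence intervals (95%) included 0. The intervals of 75 genes reached a 1.5-fold higher level in old cells and those of 3 genes, Rpl39l, Rps25 and Rpsa, a 1.5-fold lower level. For those 75 genes a 1.5-fold higher level could not be told from no difference with these 4 replicates.

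The fitted age differences of the subunits were close in size, and the difference between the subunits was not tested. The median log2 fold change was 0.24 for the 32 small subunit genes and 0.22 for the 49 large subunit genes. The small subunit genes held 1.63% and 2.51% of all scaled values in the old replicates and 1.69% and 1.82% in the young ones. The large subunit genes held 1.77% and 2.54% in the old replicates and 1.85% and 1.97% in the young ones. Together the 83 genes held 4.23% ± 1.17 of all values in old cells and 3.66% ± 0.178 in young cells (SD, n = 2 each). The difference between the ages was smaller than the SD of the old replicates. In these sorted populations, fewer cells with a high level and less RNA per cell cannot be told apart.

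The old replicates lay on either side of the young ones. Old 14 was the highest of the 4 replicates for 80 of the 81 genes, the exception being Rpl39l, where 35.5% of all tested genes had old 14 as the highest. Old 13 was the lowest of the 4 for 49 genes, against 21.9% of all tested genes. For those 49 genes, 21 of the small and 28 of the large subunit, old 13 was below both young replicates and old 14 above both, an order seen in 10.6% of all tested genes. In 26 genes old 13 lay between the young replicates, as in 28.4% of all tested genes. Both old replicates were above both young ones in 5 genes, Rpl10, Rpl23a, Rpl28, Rpl36a and Rps12, or fewer by share than the 24.7% of all tested genes. Both old replicates were below both young ones in 0 genes, against 17.4% of all tested genes.

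Between the old replicates the genes moved as a block. Old 14 exceeded old 13 by a median log2 difference of 0.66, or 1.59-fold, with an interquartile range of 0.25, where all tested genes had a median of 0.01 and an interquartile range of 0.57. The median was 0.69 for the small subunit and 0.64 for the large one. The interquartile ranges are not matched for level. Of the other tested genes 5091 had a mean scaled value up to 100, against 1 of the 81. Between the young replicates, young 14 exceeded young 13 by a median of 0.12, with -0.05 over all tested genes, and 63 of the 81 genes were higher in young 14, against 41.9% of all tested genes. Against the mean of the young replicates, old 14 stood at a median of 0.57 and old 13 at -0.10. The biological SD within an age had a median of 0.340 on the log2 scale for these genes and 0.194 for all tested genes.

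**Figure D3:**
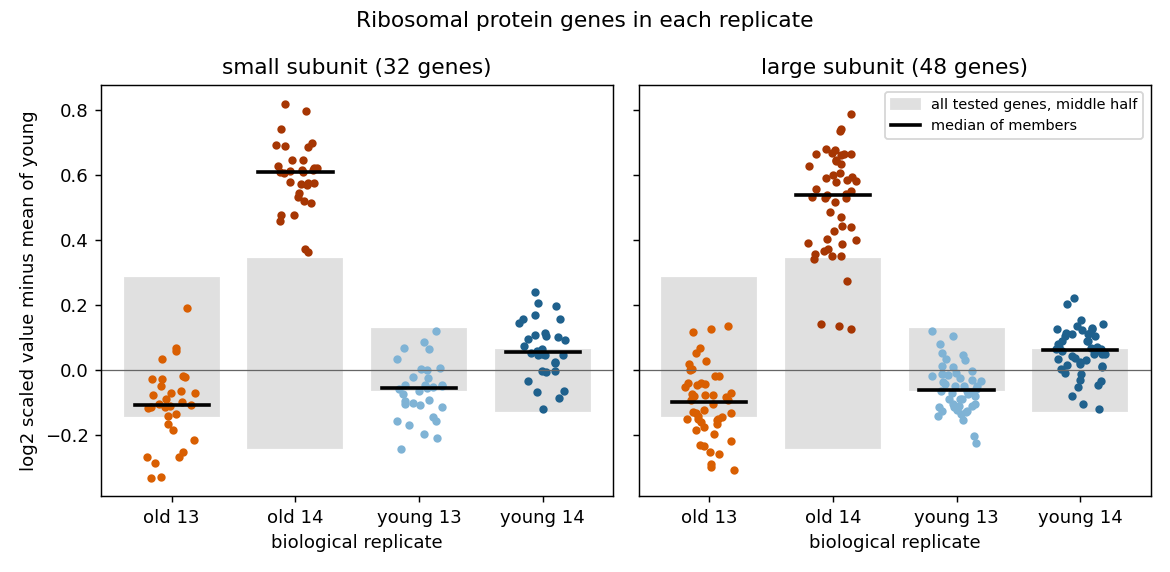
Scaled values of each ribosomal protein gene in each biological replicate as a log2 difference from the mean of the young replicates, 32 small subunit genes at left and 48 large subunit genes (without Rpl39l) at right. Black lines are medians of the genes and grey boxes the interquartile range of all tested genes. The median of old 14 stands at 0.61 for the small and 0.54 for the large subunit, above those of the other 3 replicates.

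The sign of the median age difference depended on which old replicate was kept. Without old 13 the median log2 fold change of the 81 genes was 0.57, with 66 of them at an unadjusted p under 0.05, against 20.6% of all genes tested in that fit. At an adjusted p under 0.05 in limma that fit called 0 of the 81 genes and 0 of all genes. Without old 14 it was -0.10, and 13 of the 81 genes were fitted above 0.

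Rps14, whose human counterpart is lost in the 5q- syndrome, had the highest fitted fold change. Its scaled values were 37862 and 68137 in the old replicates and 37354 and 39935 in the young ones, a log2 fold change of 0.40 ± 0.30 (SE) with an adjusted p of 0.652 in limma. Old 13 lay within the young range and old 14 well above it. Rps21, a small subunit protein, had 21872 and 33560 in the old replicates and 21874 and 19885 in the young ones (log2 fold change 0.38 ± 0.24, adjusted p = 0.577 in limma). Old 13 was level with young 13. Rps15a, which lies at chr7:125247891-125259661 (mm9) and whose start is shown above, had 24861 and 45366 in the old replicates and 22792 and 29897 in the young ones. Its log2 fold change was 0.36 ± 0.31 with an adjusted p of 0.697 in limma. Its gene model of 5129 bases was the longest of the 81.

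The other 3 with the largest fitted values had low levels. Rpl36a had 467 and 617 in the old replicates and 411 and 440 in the young ones (log2 fold change 0.34). Here both old replicates were above both young ones. Rps13 had 517 and 760 in the old replicates and 472 and 523 in the young ones (log2 fold change 0.34), so that the groups overlapped. From the lower-numbered library of each pair alone its log2 fold change was 0.19, and from the higher-numbered one 0.50. Rpl39l had values of 14.5 and 11.5 in the old replicates and 11.5 and 8.5 in the young ones (log2 fold change 0.37), near the filter on low values. From the lower-numbered libraries its log2 fold change was -0.12, and from the higher-numbered ones 1.20.

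Rpl29, a large subunit protein, was the 1 gene fitted below 0. It had 6224 and 7947 in the old replicates and 7389 and 7094 in the young ones (log2 fold change -0.04 ± 0.17, adjusted p = 0.951 in limma). Both young values lay between the old ones. Its row in the authors' files was also unlike those of the other members with a known model length. It lies at chr1:43245967-43246603 (mm9), a span of 637 bases that equals the length of its model, so the model is 1 unspliced block, and RefSeq (GRCm38.p6) lists a gene of this symbol on a different chromosome. No other member with a known model length had a 1-block model. Rpl10l, with values of 0, has no such length, so its model could not be judged. The chromosome was the same in RefSeq for 81 of the rest. Whether this row measures the spliced Rpl29 message was not tested.

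Next in order were Rpl7l1, Rpl4, Rps27l, Rpl41 and Rpl27a. Rpl7l1, a paralog known for a role in assembling the large subunit, had 6060 and 7319 in the old replicates and 6626 and 6657 in the young ones (log2 fold change 0.00). Rpl4, whose long loop lines the tunnel through which new protein leaves, had the highest mean scaled value of the 83 genes over the 4 replicates, with 96928 and 111076 in the old replicates and 99451 and 104346 in the young ones (log2 fold change 0.03 ± 0.24). Its old 14 value was 1.15 times its old 13 value, the smallest such ratio of the genes where old 14 was the higher. Rps27l had 1896 and 2955 in the old replicates and 2112 and 2469 in the young ones (log2 fold change 0.05). Rpl41, the shortest protein of the ribosome, had 12585 and 20274 in the old replicates and 14971 and 15774 in the young ones (log2 fold change 0.06). Rpl27a had 2268 and 3319 in the old replicates and 2379 and 2788 in the young ones (log2 fold change 0.09). In each of these 5 genes both young values lay between the old ones.

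In the 5 genes with both old replicates above both young ones, old 13 lay close to the young range. Rps12 had 1143 and 1395 in the old replicates and 1090 and 922 in the young ones (log2 fold change 0.33 ± 0.17, adjusted p = 0.486 in limma). Rpl10 had 497 and 719 in the old replicates and 464 and 485 in the young ones (log2 fold change 0.33). Rpl23a, which offers a docking site for the signal recognition particle beside the exit tunnel, had 2069 and 2712 in the old replicates and 2012 and 1980 in the young ones (log2 fold change 0.25). Rpl28 had 700 and 818 in the old replicates and 663 and 622 in the young ones (log2 fold change 0.24). In these 4 genes and Rpl36a, old 13 exceeded the higher young value by less than it fell short of old 14. All of them but Rpl23a are among the genes, described further on, whose technical libraries differed by an SD over 0.2 on the log2 scale.

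The stalk proteins recruit the GTPases that drive translation. Rplp0, its base, had 74039 and 120146 in the old replicates and 78875 and 84454 in the young ones. Rplp1 had 32662 and 62031 in the old replicates and 36202 and 42130 in the young ones, and Rplp2 had 17559 and 31984 in the old replicates and 19665 and 21611 in the young ones. Of the 3 genes 0 passed the test, and all 3 showed old 13 below and old 14 above both young replicates. Their log2 fold changes lay between 0.20 and 0.21, and old 14 exceeded old 13 by a median log2 difference of 0.87.

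Rpl5 and Rpl11 bind the 5S ribosomal RNA, and with Rpl23 and Rps7 they can bind Mdm2 and so spare p53 from degradation. Rpl5 had 3287 and 4364 in the old replicates and 3304 and 3511 in the young ones. Rpl11 had 2502 and 3553 in the old replicates and 2658 and 2622 in the young ones (log2 fold change 0.18 ± 0.19, adjusted p = 0.771 in limma). In both, the young values lay between the old ones. Rpl23 had 19725 and 34276 in the old replicates and 18533 and 25237 in the young ones, and Rps7 had 10265 and 15273 in the old replicates and 11808 and 10475 in the young ones. Of these 4 genes 0 passed the test, with a median log2 fold change of 0.17. Of 7 genes of the Mdm2 and p53 axis itself 0 passed the test, with a median of -0.07. The smallest p there belonged to Zmat3, a p53 target, with 597 and 675 in the old replicates and 444 and 532 in the young ones (adjusted p = 0.425 in limma).

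The 9 genes whose proteins line or surround the exit tunnel, among them Rpl4, Rpl39 and Rpl35, also had 0 called and a median log2 fold change of 0.21. Rpl39 showed one of the widest gaps between the old replicates, with 17242 and 32909 in them and 16566 and 21914 in the young ones. Its old 13 value lay between the young ones. Rpl4 had the narrowest gap of the 9. The widest gaps of all 81 genes were those of Rpl36, with 5782 and 11825 in the old replicates and 6612 and 7649 in the young ones, and Rps16, with 3060 and 6236 in the old replicates and 3614 and 3855 in the young ones. Old 14 was 2.05 times old 13 for Rpl36 and 2.04 times for Rps16, and the fitted log2 fold changes were 0.22 ± 0.31 and 0.23 ± 0.31.

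Small subunit proteins with a further known role formed a list of 8, with 0 called and a median log2 fold change of 0.29. Rps6, the substrate of the S6 kinases, had 2744 and 4250 in the old replicates and 2596 and 2993 in the young ones. Rps3, which lies at the entry of the message and also acts in DNA repair, had 70776 and 109805 in the old replicates and 72347 and 72069 in the young ones. Rpsa, also known as a laminin receptor, had 30202 and 55389 in the old replicates and 35238 and 40923 in the young ones. Old 14 was the highest replicate in all 8. Old 13 was below both young replicates in Rps3 and Rpsa and between them in Rps6.

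The 18 genes with Diamond-Blackfan anaemia mutations in humans had 0 called and a median log2 fold change of 0.22, with a range of 0.12 to 0.31. Rps19, the gene most often mutated in that disease, had 16197 and 24707 in the old replicates and 17657 and 16820 in the young ones (log2 fold change 0.22 ± 0.23, adjusted p = 0.766 in limma). Rps24 had 27928 and 52366 in the old replicates and 28060 and 37404 in the young ones. Both followed the order of the whole set, with old 13 lowest and old 14 highest. Summed over the 18 genes, scaled values were 149503 and 251500 in the old replicates and 158864 and 177238 in the young ones.

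The 4 X-linked genes, Rps4x, Rpl10, Rpl36a and Rpl39, had 0 called and the highest median log2 fold change of these groups, 0.33. Summed scaled values were 89729 and 154360 in the old replicates and 87886 and 110410 in the young ones. Old 13 lay between the young replicates in this sum.

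Of the paralogs, Rpl22l1 was expressed at a level like that of its parent gene per length. It had 179 and 315 FPKM in the old replicates and 170 and 210 FPKM in the young ones, beside 203 and 339 FPKM and 206 and 250 FPKM for Rpl22. Its log2 fold change was 0.33 ± 0.27 with an adjusted p of 0.684 in limma. Rps27l stood above its parent per length, with 82.4 and 128 FPKM in the old replicates and 91.8 and 107 FPKM in the young ones, against a highest value of 13.3 FPKM for Rps27 in any replicate. The technical libraries of Rps27 differed by an SD of 0.322 on the log2 scale. Of its sequence stretches, taken as described further on, 46.2% were shared with other genes, against 16.2% for Rps27l. The size of this gap per length is thus uncertain, and the part of shared stretches in it was not tested. The 7 parent genes had 0 called and a median log2 fold change of 0.25. Rps4y2, a row outside the choice by symbol, was the 1 paralog with an unadjusted p under 0.05. It had scaled values of 146 and 217 in the old replicates and 439 and 421 in the young ones (log2 fold change -1.27, adjusted p = 0.0501 in limma), with both old values below both young ones.

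Ribosomal genes whose names the choice missed had the same order of replicates. Gnb2l1, which encodes the small subunit protein Rack1, had 70871 and 110645 in the old replicates and 73268 and 77794 in the young ones. Fau, which encodes Rps30 fused to a ubiquitin-like protein, had 610 and 870 in the old replicates and 673 and 639 in the young ones. Both showed old 13 lowest and old 14 highest, and of the 4 such genes 0 passed the test.

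Other messages of the TOP class, mostly translation factors, also had their highest values in old 14. Of 22 tested, 0 passed the test, 20 were fitted above 0 and 20 had old 14 as the highest replicate, with a median log2 fold change of 0.13. Eef1a1, the elongation factor that brings in aminoacyl-tRNA and the most abundant row of the table, had 379878 and 639014 in the old replicates and 369785 and 458802 in the young ones. Eef2, which moves the ribosome along, had 199900 and 287447 in the old replicates and 199153 and 208308 in the young ones. Vim, an intermediate filament gene, had lower old values, with 8484 and 11925 in the old replicates and 13421 and 16300 in the young ones (log2 fold change -0.56, adjusted p = 0.290 in limma).

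Regulators of ribosomal protein synthesis had old 14 as the highest replicate less often than the ribosomal protein genes did. Of 26 tested, 0 passed the test and 9 were fitted above 0, where 56.5% of all tested genes were. In 7 of them old 14 was the highest replicate, as in 35.5% of all tested genes. Their medians were -0.11 for the log2 fold change and -0.03 for the difference between the old replicates. Mycn, a Myc family transcription factor, came closest, with 10348 and 9805 in the old replicates and 6502 and 5167 in the young ones (log2 fold change 0.80, adjusted p = 0.0637 in limma). Both its old values were above both young ones. Larp1, which binds the TOP motif, had 13329 and 9522 in the old replicates and 14249 and 13710 in the young ones. Genes for ribosomal protein chaperones and assembly factors likewise had 0 of 38 called, with 8 fitted above 0 and a median log2 fold change of -0.08. Old 14 was above old 13 in 26 of these 38 and the highest replicate in 15, against 50.6% and 35.5% of all tested genes. Their median difference between the old replicates was 0.16, beside 0.01 over all tested genes. Nolc1, a nucleolar assembly protein, had 6356 and 4636 in the old replicates and 7777 and 7140 in the young ones (log2 fold change -0.46, adjusted p = 0.330 in limma).

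Other measures that differ between the replicates are given beside this order, and their part in it was not tested. The 11 neutrophil markers were all tested with 0 called, and summed to 6204 and 18624 in the old replicates and 10154 and 48299 in the young ones, each marker above 0 in every replicate. The highest sum was in young 14 and not in old 14. Stroma markers summed to 2549 and 2131 in the old replicates and 6139 and 6499 in the young ones, with 3 of 7 called lower in old cells. Erythroid markers summed to 3375 and 3537 in the old replicates and 7274 and 6634 in the young ones, with 4 of 8 called lower. Of 15 proliferation markers 0 were called and 12 had an unadjusted p under 0.05, all 15 fitted below 0. Their sums were 100974 and 86369 in the old replicates and 141248 and 134372 in the young ones. Within the old sums, Mki67 had 29806 in old 13 and 14457 in old 14, and Top2a had 19001 and 14679. Old 14 was above old 13 in 11 of the 15 markers, against 50.6% of all tested genes, with a median log2 difference of 0.10. Over all tested genes, 0.54% were called lower, 14% had an unadjusted p under 0.05 in limma and 56.5% were fitted above 0.

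Other genes of like length or level had smaller median differences between the old replicates. Ribosomal protein genes are short, with 63 of the 81 models under 1000 bases. Other genes of the same lengths had small median differences between the old replicates, -0.05 on the log2 scale for models up to 500 bases and 0.12 for those of 700 to 1000 bases. The ribosomal protein genes had medians of 0.80 and 0.57 in these ranges. For the age difference the gap to other short genes was smaller. The median log2 fold change up to 500 bases was 0.24 for 18 ribosomal protein genes and 0.18 for 1042 other genes, and at 700 to 1000 bases 0.22 for 21 and 0.10 for 1111. Among genes with a mean scaled value above 10000, the 43 ribosomal protein genes had a median old 14 to old 13 difference of 0.71, and the 674 other genes one of 0.14. After a correction of each replicate by a curve of its log2 values on length, the median log2 fold change, old over young, of the 81 genes was 0.10 and 73 of them were fitted above 0. Of 29 ribosomal protein genes with a printed fold change, 27 moved by over 1.5 times or changed sign under this correction.

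**Figure D4:**
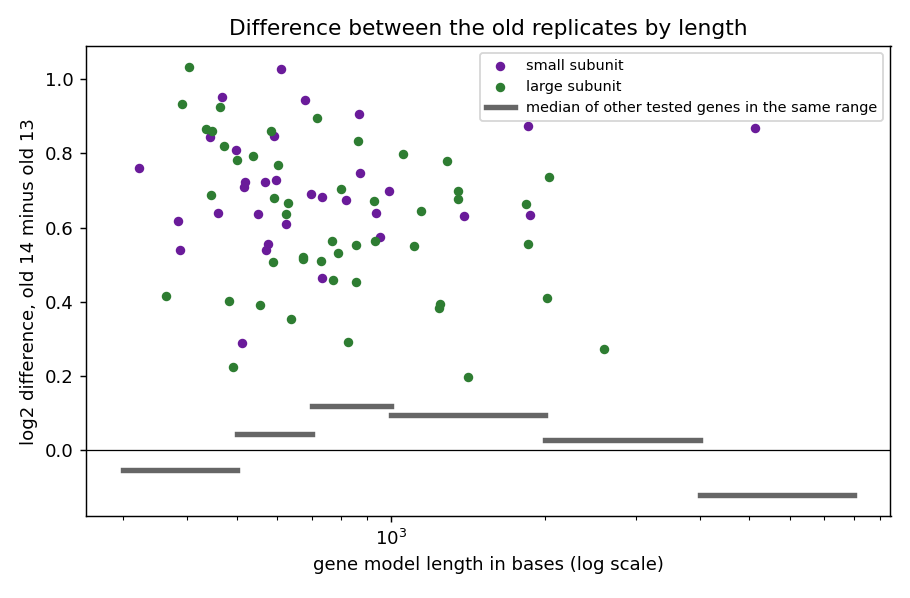
Log2 difference between old 14 and old 13 of each tested ribosomal protein gene against the length of its gene model on a log scale, with the median of all other tested genes in the same length range as grey bars. The ribosomal protein genes lie above the bars at every length, and Rpl39l, with a difference of -0.32, is not drawn.

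Some of the genes with low levels differed strongly between the technical libraries of one replicate. In 17 genes, 8 of the small and 9 of the large subunit, the SD between technical libraries was over 0.2 on the log2 scale, a limit chosen after the values were seen. Rpl39l was left out of this count. In Rps29 the pairs of libraries had scaled values of 996 and 604 in old 13, 738 and 1587 in old 14, 986 and 465 in young 13 and 600 and 1080 in young 14. The gap between libraries of one replicate was thus as wide as 2.15-fold. In Rpl12 the pairs were 1303 and 1036 in old 13, 1347 and 2362 in old 14, 1425 and 874 in young 13 and 893 and 1488 in young 14. Averaged over the libraries, the age difference of Rps29 was 0.30 ± 0.21 and that of Rpl12 was 0.33 ± 0.23 on the log2 scale.

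The direction of these gaps was shared among the 17 genes. Library 4 was the higher one of old 14 in 16 of them and the higher one of young 14 in 16. Library 1 was the higher one of young 13 in 16 and of old 13 in 12. Among the other 63 genes, library 4 was the higher one of old 14 in 18 and of young 14 in 15. Library 1 was the higher one of young 13 in 37 of those 63 and of old 13 in 53. The direction in old 13 was thus not particular to the 17. The 17 genes had a median level of 27.4 FPKM and the other 63 one of 496 FPKM. At mean scaled values of 200 to 2000, 14 of 15 ribosomal protein genes (93.3%) had a technical SD over 0.2, against 133 of 6477 other genes (2.05%). Above 10000, 0 of the 43 ribosomal protein genes and 0 of the 674 others did. In 68 of the 81 genes the SD between biological replicates was above the SD between technical libraries, and 12 of the 13 where it was not are among the 17. The biological SD was taken from averages of 2 libraries and the technical SD from single libraries, so these counts compare unlike measures. The median log2 difference between old 14 and old 13 in the 17 genes was 0.22 between libraries 3 and 2 and 0.82 between libraries 4 and 1.

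**Figure D5:**
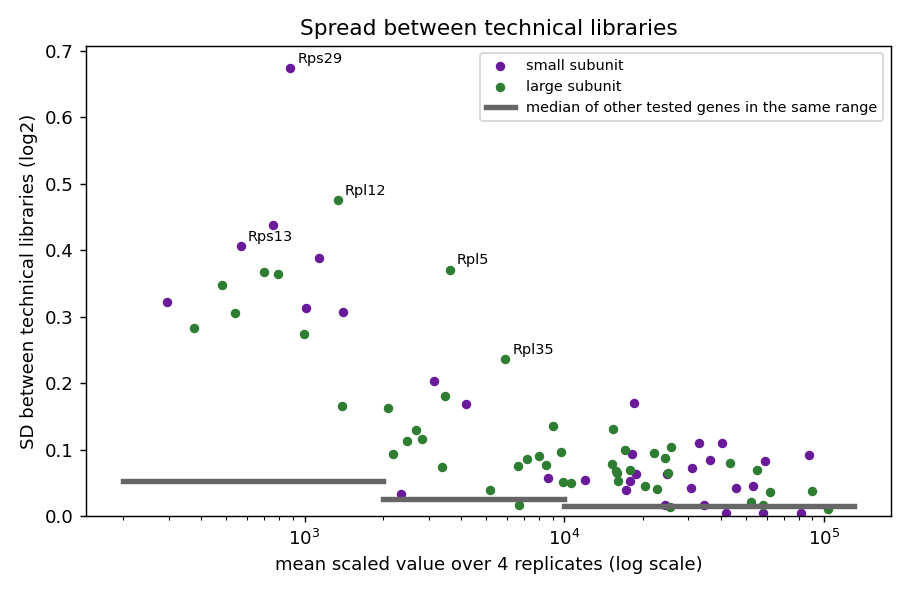
SD between the technical libraries of a replicate on the log2 scale against the mean scaled value on a log scale, for the tested ribosomal protein genes except Rpl39l, with the median of all other tested genes in the same range of values as grey bars. Rps29 is highest at 0.674, and genes with values above 10000 all lie under 0.2.

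Many ribosomal protein genes have processed pseudogenes with nearly the same sequence, which a counting of short reads can split or discard. In GENCODE M21 transcripts, 79 of the 81 tested genes shared at least 1 stretch of 50 bases with a transcript annotated as a pseudogene, with a median of 8 such pseudogenes and as many as 121 for Rpl7a. A median of 38.3% of the 50-base stretches of a gene were shared, up to 95.1% for Rpl35. The 11 genes with over 75% shared had a median of 90.1 FPKM and a median technical SD of 0.170, and the 19 with at most 25% shared had 605 FPKM and 0.0448. Across the 81 genes the shared percentage had a Spearman correlation of -0.26 with FPKM and 0.43 with the technical SD. Levels of single genes per length are uncertain, and the part of shared stretches in them was not tested. The median difference between old 14 and old 13 was 0.52 in the genes with over 75% shared and 0.68 in those with at most 25%. Rows of the table named as ribosomal protein pseudogenes, 115 in number, summed to 12097 and 13082 in the old replicates and 11044 and 9286 in the young ones, which was 0.871% and 0.586% of the values of the 83 genes in the old replicates and 0.762% and 0.582% in the young ones. The spans of 29 of the 83 genes overlap another row, mostly that of a small nucleolar RNA, and only for Rpl31 was the other row, Tbc1d8, the more abundant.

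The authors' deposited table of their own comparison marks 17 of the 83 genes as higher in old cells and 0 as lower, where it marks 6% of all its genes with an FDR as higher and 5.82% as lower. A mark needs an FDR under 0.05 and a minimum level. By the FDR alone, the authors' deposited table has the same 17 genes, against 10.4% of the tested genes that carry an FDR there. The 17 in the authors' deposited table are 11 of the 32 small subunit genes and 6 of the 51 large subunit genes. The authors' deposited table gives the smallest FDR to Rps14, 0.00152 with a log2 fold change of 0.42, followed by Rps15a with 0.0048 and 0.38. Rps16, which the authors' deposited table marks with an FDR of 0.0419, is a gene whose old values enclosed the young ones, with 3060 in old 13 and 6236 in old 14. Which libraries the authors took as replicates is not stated in it. Of the 17 genes with a technical SD over 0.2, 8 (47.1%) are marked as higher in the authors' deposited table, and of the other 63, 9 (14.3%).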

How the data were processed

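Polyadenylated RNA of sorted stem cells was measured in 8 libraries, which form 2 technical pairs per age. The deposited values named like counts are a score: read numbers that the authors scaled with a single factor for each library and then rounded, as found from the spacing of the values. The deposited FPKM is that score times 1 constant per gene, so length is corrected and depth is as in the score. The log2 fold change and the FDR, an adjusted p-value, come from the authors' deposited table. Per the submitters' processing notes, the build is mm9 and DESeq was among the tools. The aligner and the counting tool were not given in the sources used here.

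Scores of technical pairs were averaged, and log2(value + 0.5) was fitted by age alone in limma 3.58.1 under R 4.3.3, with a trend in the prior, two-sided tests and Benjamini-Hochberg adjustment over the 18318 genes that passed the filter. A count test was not used since the values are not counts. Fold changes are old over young on this scale and understate those of low genes. The fit was tested on simulated data. The ribosomal protein genes and the gene lists were chosen with earlier results of these data known. Named genes were the 6 highest and 6 lowest by fold change, the 5 highest and 5 lowest by FPKM, paralogs and their parents, members of the role lists and, for other lists, those with the smallest p. A gene among those the rule names is not reported here. Rpl36, Rps16, Larp1, Rps29, Rpl12, Rpl7a and Tbc1d8 were named after their values were seen. Precision is limited by 2 replicates per age. Alternatives covered pseudocount, filter, scaling, test, length, technical library, replicate block and leaving out each replicate.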

Additional observations from a re-analysis of the deposited data

How the results depend on the processing

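Of the 81 tested genes 0 were called in limma under every alternative run on these values, and the authors' deposited table calls 17 as higher. Pseudocounts of 0.1 and 5, the filters, all scalings, single-symbol rows and the gene set without paralogs gave median log2 fold changes of 0.18 to 0.23. The main fit gave 0.23. The SD of this median between replicates of an age was 0.34, larger than the median itself, so staying within it is a loose limit. Leaving out 1 replicate moved the median of the 81 genes between -0.10 and 0.57, that of the small subunit between -0.11 and 0.61 and that of the large one between -0.092 and 0.54. The negative values came without old 14 and the highest without old 13, where the lone sample of an age is assumed to vary like the others.

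The number of all genes called depended more on the settings. It was 0 higher and 0 lower without a filter on low values, 237 and 65 at a mean FPKM of at least 1, and 242 and 51 from the lower-numbered library of each pair. There were 52 lower from the higher-numbered library and 56 without a trend. With 1 replicate left out the counts were between 0 and 201 higher and between 0 and 62 lower, with 0 of either without old 13 or without old 14. The authors' deposited table gives 1590 higher and 1520 lower by an FDR under 0.05 alone, among the 15270 genes tested here that have one there.

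With the replicate number as a block the counts were 1698 higher and 1068 lower, 0 of the 81 genes were called, 15 had an unadjusted p under 0.05 (18.5%, against 26.8% of all tested genes) and the lowest adjusted p in limma was 0.126. The deviations of old 13 and young 13 from their age means had a correlation of 0.54 across all tested genes, but the labels do not say that the numbers pair the samples and there are only 2 pairs.

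Several single genes near 0 changed sign. With the length correction Rpl7l1 had a log2 fold change of -0.036, Rpl4 -0.042, Rps27l -0.12 and Rpl41 -0.12. From the lower-numbered libraries it was 0.016 for Rpl29, -0.016 for Rpl7l1 and -0.12 for Rpl39l. Of 29 genes with a printed fold change, 12 moved by over 1.5 times from the lower-numbered libraries, 10 from the higher-numbered ones and 27 with the length correction. Rpl7l1 was at -0.018 with TMM factors and also with such factors estimated without the ribosomal protein genes, at -0.042 with median-ratio factors and at -0.029 with limma-voom. Rpl4 was at -0.020 with median-ratio factors and at -0.0064 with limma-voom. With 1 replicate left out, Rps14 ranged from -0.029 to 0.82, Rps15a from -0.070 to 0.80, Rps4x from -0.14 to 0.61, Rps16 from -0.29 to 0.74, Rps19 from -0.089 to 0.52, Rps27 from -0.065 to 0.48 and Rps27l from -0.27 to 0.37. In the large subunit the range was -0.15 to 0.63 for Rpl32, -0.26 to 0.67 for Rplp1, -0.30 to 0.73 for Rpl36, -0.079 to 0.74 for Rpl22l1 and -0.00040 to 0.66 for Rpl12. It was -0.077 to 0.43 for Rpl11, -0.040 to 0.47 for Rpl27, -0.017 to 0.27 for Rpl10a and -0.18 to 0.37 for Rpl27a. It was -0.29 to 0.40 for Rpl41, -0.13 to 0.14 for Rpl7l1, -0.072 to 0.12 for Rpl4 and -0.22 to 0.13 for Rpl29. The cause of these changes beyond the sample left out was not tested.

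The small to large ratio was 2.32 in old and 2.34 in young cells when medians of FPKM replaced the sums, and 0.956 in old and 0.919 in young cells as a sum of scaled values.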
